A study of Mus musculus with 10 samples.

Results

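Inward rectifier potassium channels are encoded by the Kcnj genes, and 10 of them (Kcnj2, Kcnj3, Kcnj4, Kcnj6, Kcnj9, Kcnj10, Kcnj11, Kcnj12, Kcnj13 and Kcnj16) were examined among the 29883 genes with counts in the nucleus accumbens (NAc). They were chosen by name, as members of this channel family, and all 10 were found in the count table. The NAc was dissected from ethanol-naive male mice of the inbred strains C57BL/6J (B6) and DBA/2J (D2) at 9 weeks of age, with 5 mice per strain and 1 RNA-seq library per mouse. The 2 strains are the parents of a panel of recombinant inbred mice used in ethanol research and were compared here without any treatment. Every mouse of a strain carries the same genome, so the spread within a strain is that between individual animals and their dissections, and no mice other than males were sequenced.

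Inward rectifiers pass potassium into the cell more readily than out of it, and thereby hold the resting membrane potential near the equilibrium potential of potassium. The Kir2 channels (Kcnj2, Kcnj12 and Kcnj4) are open at rest and shape the hyperpolarized resting state of striatal projection neurons. The GIRK or Kir3 channels (Kcnj3, Kcnj6 and Kcnj9) are opened by G protein beta-gamma subunits released from receptors such as those for GABA (GABA-B), dopamine (D2-like), opioids and adenosine, and they are also opened directly by ethanol. Kir4.1 (Kcnj10), alone or with Kir5.1 (Kcnj16), takes up extracellular potassium into astrocytes and oligodendrocytes. Kir6.2 (Kcnj11) forms the pore of the ATP-sensitive potassium channel, and Kir7.1 (Kcnj13) is best known from choroid plexus and retinal pigment epithelium.

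All these channels share a short stretch of the pore loop, the selectivity filter, which lets potassium through in preference to sodium. The reference coding sequence at this place is shown for 5 genes on which the results below turn, because it is the feature that joins them into a family and because similar sequence could let reads be assigned to the wrong gene. Each sequence is 27 bases of the sense strand from GRCm39, the genome to which the authors aligned both strains, and the capitals mark the 5 codons of the filter.
Kcnj3: gaggccACCATCGGCTATGGCtaccgc
Kcnj6: gaaaccACCATCGGTTATGGCtaccgg
Kcnj9: gagaccACCATCGGCTATGGGcaccgg
Kcnj10: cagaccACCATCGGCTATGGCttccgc
Kcnj11: caggtgACCATTGGTTTCGGCgggcgc
These windows lie within a coding exon at chr2:55327633-55327659 on the plus strand (Kcnj3), chr16:94633630-94633656 on the minus strand (Kcnj6), chr1:172153745-172153771 on the minus strand (Kcnj9), chr1:172196863-172196889 on the plus strand (Kcnj10) and chr7:45748914-45748940 on the minus strand (Kcnj11). The filter codons of Kcnj3 and Kcnj10 were identical, although 3 bases differed in the whole window. Kcnj11 differed from Kcnj3 at 4 of the filter bases and at 10 bases of the window. Over the whole transcripts, the longest run of bases shared by any 2 of the 10 genes was 51, between Kcnj2 and Kcnj12, whereas the reads were 150 bases long.

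Between 96977262 and 111468080 reads per B6 mouse and between 104443243 and 116776714 per D2 mouse were counted on genes, and the 10 Kcnj genes took 0.0576% to 0.0721% of them. Each gene had between 565 and 41588 counts in every library except Kcnj13, with 24 to 98. Values are given as CPM, in which the counts of a gene are set against the total of its library, scaled by TMM, a normalization that sets the bulk of genes equal between libraries. The tissue was checked with markers: 10 genes of striatal projection neurons, the main cell type of the NAc, summed to 4987 to 6305 CPM in B6 and 4123 to 4983 CPM in D2. By contrast, 6 genes of cortex projection neurons (Slc17a7 and Neurod6 among them), a cell type that the NAc does not hold, summed to 81.1, 74.2, 929, 159 and 941 CPM in B6 replicates 1 to 5 and to 213, 535, 579, 467 and 307 CPM in D2 replicates 1 to 5. B6 replicates 3 and 5 thus stood apart from the other B6 mice, and values of the Kcnj genes that moved without them are given both ways. Tests of partner and marker genes are given over all 10 mice only, including B6 replicates 3 and 5. These libraries were also the most alike of any pair of a strain, but differed by more than sampling noise, by a chi-square of 4.89 for the average gene, where sampling alone gives about 1.

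Of the 10 Kcnj genes, 2 differed between the strains at a Benjamini-Hochberg adjusted p of 0.05 in edgeR's quasi-likelihood test over all genes. Kcnj10 was higher in D2 and Kcnj11 was lower in D2. Over all 29883 genes the same test called 18.3%, with 8.5% higher and 9.83% lower in D2, so the share of called Kcnj genes was close to that background. Among the 15388 genes averaging 100 counts or more 23.8% were called. CPM values of 16% of all genes did not overlap between the strains, and Kcnj10 and Kcnj11 were the 2 Kcnj genes of the 10 for which this was so.

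**Figure D1:**
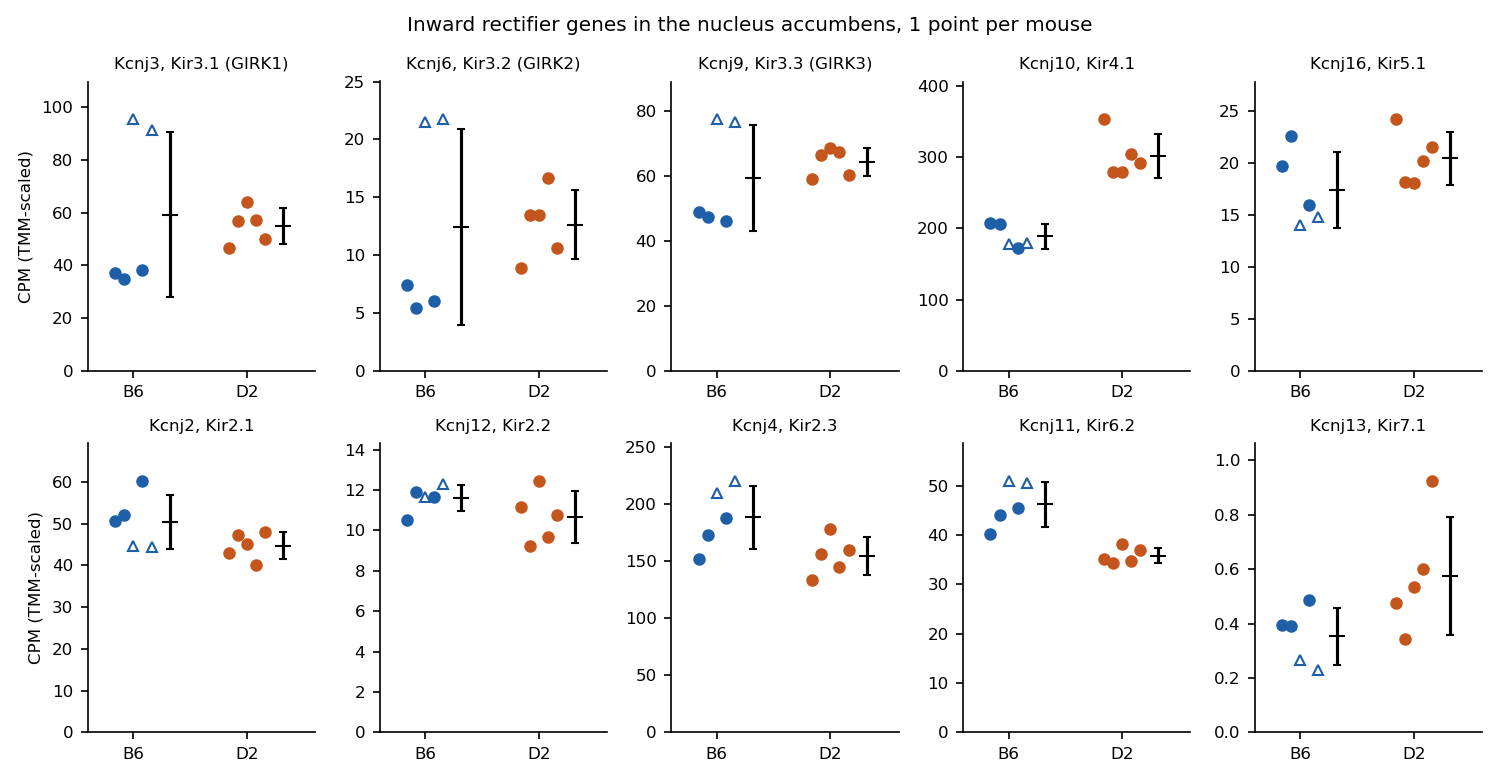
CPM (TMM-scaled, linear axes from 0) of the 10 Kcnj genes in each B6 (blue) and D2 (orange) mouse, where open triangles are B6 replicates 3 and 5 and black bars are the mean ± SD of 5 mice. Kcnj10 and Kcnj11 do not overlap between the strains, and in Kcnj3, Kcnj6 and Kcnj9 the open triangles lie above all other mice.

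Kcnj10 encodes Kir4.1, the main potassium channel of astrocytes, and lies at chr1:172168765-172201652 on the plus strand. Its levels were 208, 206, 178, 172 and 179.6 CPM in B6 replicates 1 to 5 and 353, 279, 279, 305 and 292 CPM in D2 replicates 1 to 5. All D2 mice lay above all B6 mice, and D2 replicate 1 was the highest. The means were 189 ± 17.0 CPM in B6 and 302 ± 30.7 CPM in D2 (SD, n = 5 mice each). On the log2 scale Kcnj10 was higher in D2 by 0.68 (standard error 0.074, 95% interval 0.52 to 0.84), a 1.599-fold level, with an adjusted p of 2.7e-05 in edgeR's quasi-likelihood test. This difference stayed between 0.61 and 0.71 when any 1 mouse was left out. In bulk tissue, a difference in the number of cells of a type and a difference in RNA per cell cannot be told apart.

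Astrocyte markers did not move with Kcnj10 as a group. Of 10 astrocyte genes, Gja1 was higher in D2 (log2 fold change 0.20), Aldh1l1 (-0.24), Aldoc (-0.37) and Aqp4 (-0.19) were lower, and the other 6 did not pass. Their summed level ranged from 4008 to 4502 CPM in B6 and from 4103 to 4369 CPM in D2. Of 8 oligodendrocyte genes 6 were lower in D2 and none was higher, and their sum was 4528 to 6481 CPM in B6 and 3389 to 4951 CPM in D2. The called share was 40% of the astrocyte list and 75% of the oligodendrocyte list. Over all genes it was 18.3%, and over those averaging 100 counts or more 23.8%. B6 replicates 3 and 5 held the highest oligodendrocyte sums (6481 and 6462 CPM), against 4528 to 5436 CPM in the other B6 mice. The sums of both lists overlapped between the strains. Most of the astrocyte sum was Slc1a2 (2588 ± 232 CPM in B6 and 2729 ± 114 CPM in D2). The part of astrocyte and oligodendrocyte numbers in the Kcnj10 values was not tested. No marker of either list was at 0 in any library.

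Kir4.1 is held at astrocyte endfeet beside aquaporin-4 by the dystroglycan complex, and its potassium uptake runs alongside glutamate transport and the sodium pump. Of 13 such partner genes, 3 were lower in D2 and none was higher. That is 23.1% of the list, against 18.3% of all genes and 23.8% of those averaging 100 counts or more. The median log2 fold change was -0.06 against 0.0036 over all genes. Aqp4, the water channel, was at 98.7 ± 7.13 CPM in B6 and 86.7 ± 5.26 CPM in D2 (SD, n = 5 mice each), with a log2 fold change of -0.19 (edgeR adjusted p = 0.032). Utrn, which encodes the dystrophin relative utrophin, changed by -0.16 on the log2 scale (edgeR adjusted p = 0.015), and Dag1, which encodes dystroglycan, by -0.08 (edgeR adjusted p = 0.043). The glutamate transporters Slc1a2 (log2 fold change 0.08) and Slc1a3 (-0.06) did not pass the test.

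Kcnj16 encodes Kir5.1, a subunit that forms no working channel of its own in most cells and joins Kir4.1 in a pH-sensitive channel. It was at 19.7, 22.6, 14.04, 15.9 and 14.8 CPM in B6 replicates 1 to 5 and at 24.2, 18.2, 18.1, 20.2 and 21.5 CPM in D2 replicates 1 to 5. The strains overlapped, and B6 replicates 3 and 5 were the lowest of all mice. Its log2 fold change was 0.23 (standard error 0.13, 95% interval -0.05 to 0.51, edgeR adjusted p = 0.26), and without B6 replicates 3 and 5 it was 0.074 (edgeR adjusted p = 0.73). It lies at chr11:110858843-110927617 on the plus strand, 29363 bases from Kcnj2.

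The balance of the 2 subunits was compared as the ratio of Kcnj10 to Kcnj16 counts within each mouse. The ratio was 10.6, 9.13, 12.7, 10.8 and 12.2 in B6 replicates 1 to 5 and 14.6, 15.3, 15.5, 15.1 and 13.5 in D2 replicates 1 to 5. All D2 mice had a higher ratio than all B6 mice. The mean log2 ratio was higher by 0.43 in D2, or 1.35-fold, in an exact two-sided permutation of the strain labels (5 mice against 5, p = 0.0079, the smallest possible). Adjusted over the 4 subunit ratios that were compared, p was 0.032 by the Benjamini-Hochberg method. With 1 mouse left out the difference lay between 0.36 and 0.48. The exact permutation p was then 0.016 each time, the smallest possible with 1 mouse fewer. Adjusted beside the other ratios, which did not pass, it was 0.063 and missed the threshold.

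Kcnj11 encodes Kir6.2, the pore of the ATP-sensitive channel that couples metabolic state to excitability, and lies at chr7:45743377-45750188 on the minus strand. Its levels were 40.2, 44.0, 51.0, 45.4 and 50.5 CPM in B6 replicates 1 to 5 and 35.1, 34.4, 38.1, 34.7 and 36.9 CPM in D2 replicates 1 to 5. Every D2 mouse was below every B6 mouse, although the highest D2 mouse and the lowest B6 mouse were close. The means were 46.2 ± 4.58 CPM in B6 and 35.8 ± 1.57 CPM in D2 (SD, n = 5 mice each). Its log2 fold change was -0.37 (standard error 0.062, 95% interval -0.50 to -0.23), so D2 had 0.775 of the B6 level, with an edgeR adjusted p of 9.9e-04. It stayed between -0.41 and -0.33 with each mouse left out and was -0.27 without both B6 replicates 3 and 5 (edgeR adjusted p = 0.0018).

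None of 3 partner genes of ATP-sensitive channels passed the test. The sulfonylurea receptor Abcc8, which pairs with Kir6.2 in neurons, was at 31.3 ± 5.71 CPM in B6 and 37.4 ± 1.73 CPM in D2 (SD, n = 5 mice each), with a log2 fold change of 0.26 (edgeR adjusted p = 0.108). For Abcc9, the receptor found mostly in vessels and muscle, the log2 fold change was 0.12 (edgeR adjusted p = 0.42). Kcnj8, which encodes the related pore Kir6.1 of vascular mural cells, had 2.67 ± 0.0818 CPM in B6 and 2.64 ± 0.256 CPM in D2.

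**Figure D2:**
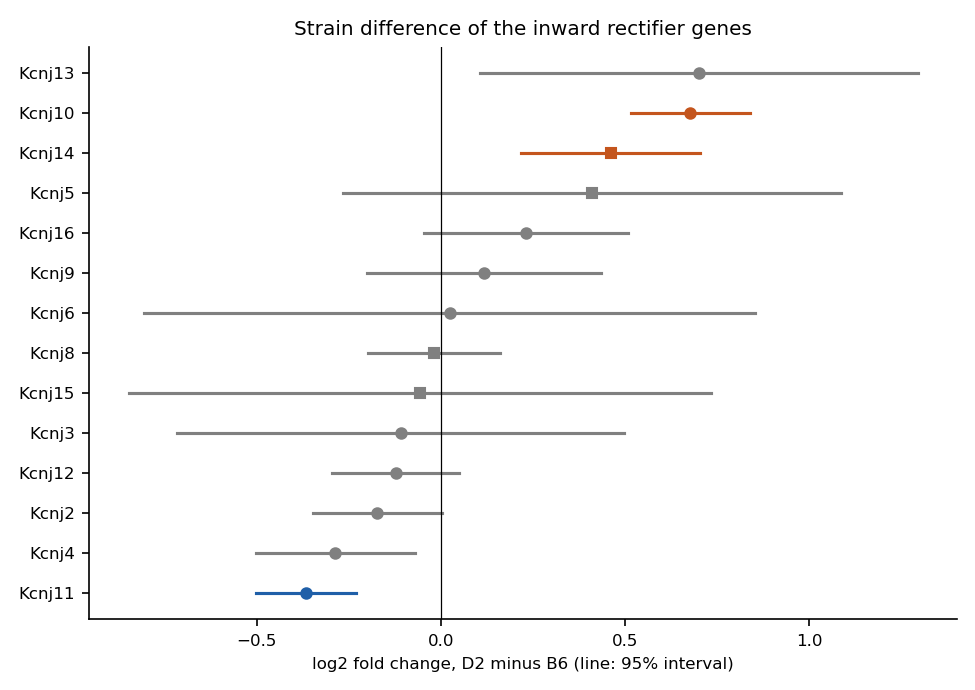
Log2 fold change (D2 over B6) in edgeR's fit, with 95% intervals, for the 10 Kcnj genes (circles) and 4 further Kcnj genes (squares), where orange is higher and blue lower in D2 at an adjusted p of 0.05 and grey did not pass. Kcnj10 (0.68) and Kcnj14 (0.46) lie to the right of 0 and Kcnj11 (-0.37) to the left, while the intervals of Kcnj3 and Kcnj6 are wide.

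Among Kcnj2, Kcnj4 and Kcnj12, the Kir2 genes of the 10, none passed the test in all 10 mice. Kcnj14 (Kir2.4), which is not among the 10, was higher in D2 (log2 fold change 0.46, edgeR adjusted p = 0.011). Kcnj4, which encodes Kir2.3, a channel concentrated at the postsynaptic side of dendritic spines, lies at chr15:79367321-79390032 on the minus strand. It was at 151, 173, 209, 188 and 220.3 CPM in B6 replicates 1 to 5 and at 133, 156, 178, 144 and 160.1 CPM in D2 replicates 1 to 5. The strains overlapped, with B6 replicates 3 and 5 highest and D2 replicate 1 lowest. The log2 fold change was -0.29 (standard error 0.0998, 95% interval -0.50 to -0.07), and the adjusted p was 0.068 in edgeR and 0.038 in DESeq2, which called 22.1% of the genes it tested. The call was also made in edgeR without B6 replicate 1 (-0.36, adjusted p = 0.014) and without D2 replicate 3 (-0.35, adjusted p = 0.036). Without both B6 replicates 3 and 5 the log2 fold change was -0.15 (standard error 0.086, edgeR adjusted p = 0.30).

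Kcnj2 encodes Kir2.1, the classical inward rectifier of striatal projection neurons, and lies at chr11:110956981-110967665 on the plus strand. Its levels were 50.5, 52.1, 44.5, 60.2 and 44.4 CPM in B6 replicates 1 to 5 and 43.1, 47.1, 45.2, 40.05 and 48.0 CPM in D2 replicates 1 to 5. B6 replicates 3 and 5 lay among the D2 mice and the other B6 mice above them. The log2 fold change was -0.17 (95% interval -0.35 to 0.00, edgeR adjusted p = 0.17), and without B6 replicates 3 and 5 it was -0.28 (standard error 0.067, edgeR adjusted p = 0.0098). Kcnj12, the gene of Kir2.2 at chr11:60912944-60964099 on the plus strand, ranged from 10.5 to 12.3 CPM in B6 and from 9.24 to 12.5 CPM in D2, with a log2 fold change of -0.12 (95% interval -0.29 to 0.05, edgeR adjusted p = 0.35).

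Genes of striatal projection neurons were lower in D2 beside these Kir2 values. Of 10 markers 7 were lower (70%) and none was higher. Over all genes 18.3% were called, and 23.8% of those averaging 100 counts or more. The median log2 fold change of these markers was -0.31. Their part in the values of Kcnj4, Kcnj2 and Kcnj11 was not tested. B6 replicates 3 and 5 had the lowest marker sums of their strain (5015 and 4987 CPM), and they had low levels of Kcnj2 but the highest levels of Kcnj4 and Kcnj11. Of 9 genes for scaffold proteins that anchor Kir2 channels at synapses, Dlg4, which encodes PSD-95, was lower in D2, at 818 ± 31.6 CPM in B6 and 727 ± 16.03 CPM in D2 (SD, n = 5 mice each). This was a change of -0.17 on the log2 scale (edgeR adjusted p = 0.0059). The other 8 did not pass, so 11.1% of the list was called, and the median of the list was 0.04.

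None of the 3 GIRK genes passed the test between the strains over all 10 mice, and their values separated the B6 mice among themselves. Kcnj3 encodes GIRK1 (Kir3.1), which needs a partner subunit to reach the membrane, and lies at chr2:55325801-55488157 on the plus strand. It was at 37.0, 34.8, 95.5, 38.1 and 91.3 CPM in B6 replicates 1 to 5 and at 46.6, 57.004, 64.2, 57.3 and 49.9 CPM in D2 replicates 1 to 5. B6 replicates 3 and 5 were above every other mouse and the remaining B6 mice were below every D2 mouse. The log2 fold change was -0.11 with a standard error of 0.28, and its 95% interval of -0.71 to 0.50 allowed differences of either sign (edgeR adjusted p = 0.85).

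Kcnj6 encodes GIRK2 (Kir3.2), the subunit that can form channels alone and that is needed for GIRK currents in many neurons, and lies at chr16:94545901-94798612 on the minus strand. Its levels were 7.40, 5.41, 21.5, 6.04 and 21.7 CPM in B6 replicates 1 to 5 and 8.92, 13.5, 13.5, 16.6 and 10.6 CPM in D2 replicates 1 to 5. The same order as for Kcnj3 was seen, with all D2 mice between the remaining B6 mice and B6 replicates 3 and 5. For Kcnj6 the log2 fold change was 0.02 (standard error 0.38, 95% interval -0.80 to 0.85, edgeR adjusted p = 0.98). Its sign turned when B6 replicate 1, 2 or 4 or D2 replicate 2, 3 or 4 was left out.

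Kcnj9 encodes GIRK3 (Kir3.3), a subunit that reaches the membrane with GIRK1 or GIRK2 and carries a signal for endosomal sorting. It lies at chr1:172144668-172163568 on the minus strand, 5196 bases from Kcnj10. It was at 48.8, 47.3, 77.4, 46.1 and 76.6 CPM in B6 replicates 1 to 5 and at 58.9, 66.3, 68.4, 67.2 and 60.3 CPM in D2 replicates 1 to 5. Again the D2 mice fell in the gap within B6. For Kcnj9 the log2 fold change was 0.12 (standard error 0.15, 95% interval -0.20 to 0.44, edgeR adjusted p = 0.67).

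The mean of B6 replicates 3 and 5 was 2.55 times that of the other B6 mice for Kcnj3, 3.44 times for Kcnj6 and 1.62 times for Kcnj9. Ratios of at least 2 were found for 210 of the 15388 genes averaging 100 counts or more (1.36%) and ratios of at least 1.5 for 551 (3.58%). Kcnj4 (1.26) and Kcnj11 (1.18) were also above 1, Kcnj12 was at 1.05, and Kcnj10 (0.914), Kcnj2 (0.818), Kcnj16 (0.742) and Kcnj13 (0.583) were below. These are descriptions of 2 libraries against 3 that were set apart by cortex neuron markers, and no test was made of them. What part cortex cells in the dissection had in these values was not tested.

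**Figure D3:**
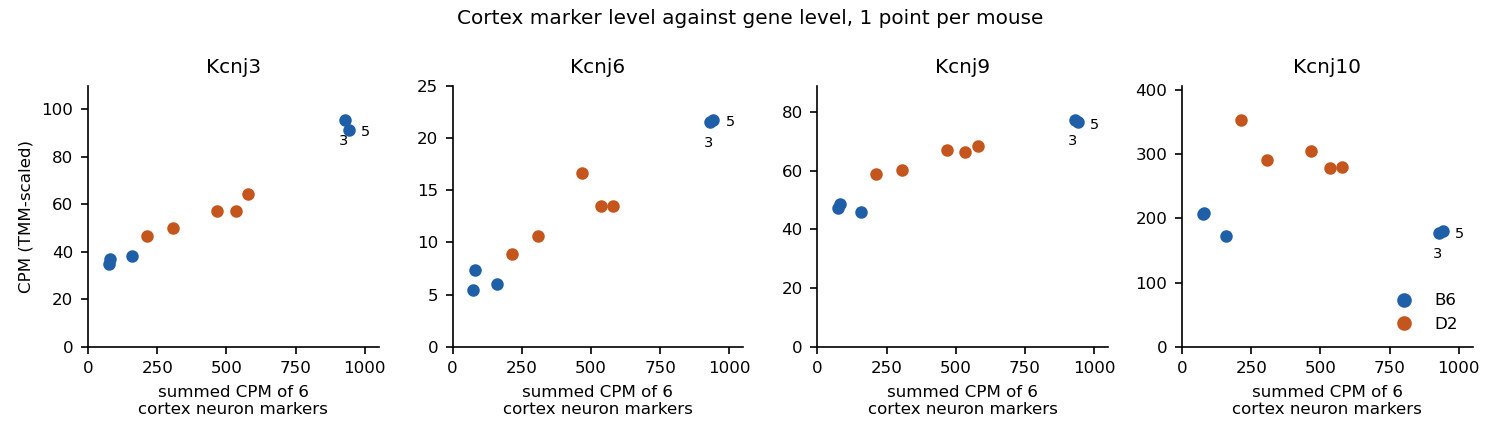
CPM of Kcnj3, Kcnj6, Kcnj9 and Kcnj10 against the summed CPM of 6 cortex projection neuron markers, 1 point per B6 (blue) or D2 (orange) mouse, with B6 replicates 3 and 5 numbered. In the 3 GIRK genes B6 replicates 3 and 5 are highest, the other B6 mice, with the lowest marker sums, are lowest, and the D2 mice lie between, whereas Kcnj10 separates by strain.

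The strain difference of the GIRK genes depended on how these libraries were treated. Without B6 replicates 3 and 5, where 19.2% of all genes were called, 6 of the 10 Kcnj genes passed. Kcnj3 was then higher in D2 by 0.58 on the log2 scale (standard error 0.086, edgeR adjusted p = 3.9e-04), Kcnj6 by 1.00 (standard error 0.176, edgeR adjusted p = 0.0014) and Kcnj9 by 0.44 (standard error 0.053, edgeR adjusted p = 8.0e-05). Kcnj10 remained higher (0.63, edgeR adjusted p = 1.7e-04), and Kcnj2 and Kcnj11 were lower. Kcnj4 (-0.15), Kcnj12 (-0.09), Kcnj13 (0.44) and Kcnj16 (0.074) did not pass. The D2 mice that remain in this comparison had cortex marker sums of 213 to 579 CPM and the B6 mice 74.2 to 159 CPM, so the marker level and the strain cannot be told apart in it.

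With all 10 mice and the log2 marker sum as a covariate, where 26.2% of all genes were called, Kcnj3 was lower in D2, with a log2 fold change of -0.24 (edgeR adjusted p = 0.0097), opposite to the comparison without the 2 libraries. Kcnj6 was at -0.11 (edgeR adjusted p = 0.59) and Kcnj9 at 0.02 (edgeR adjusted p = 0.86). Kcnj10 was at 0.72 (edgeR adjusted p = 2.1e-07) and Kcnj11 at -0.41 (edgeR adjusted p = 2.9e-06). In this fit Kcnj4 was also lower in D2 (-0.36, edgeR adjusted p = 2.9e-04), and Kcnj16 (0.36, edgeR adjusted p = 6.9e-04) and Kcnj13 (0.89, edgeR adjusted p = 0.017) were higher, none of which passed without B6 replicates 3 and 5. Of the 10 Kcnj genes, Kcnj10 and Kcnj11 were those that passed in every one of the 21 alternatives tried.

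**Figure D4:**
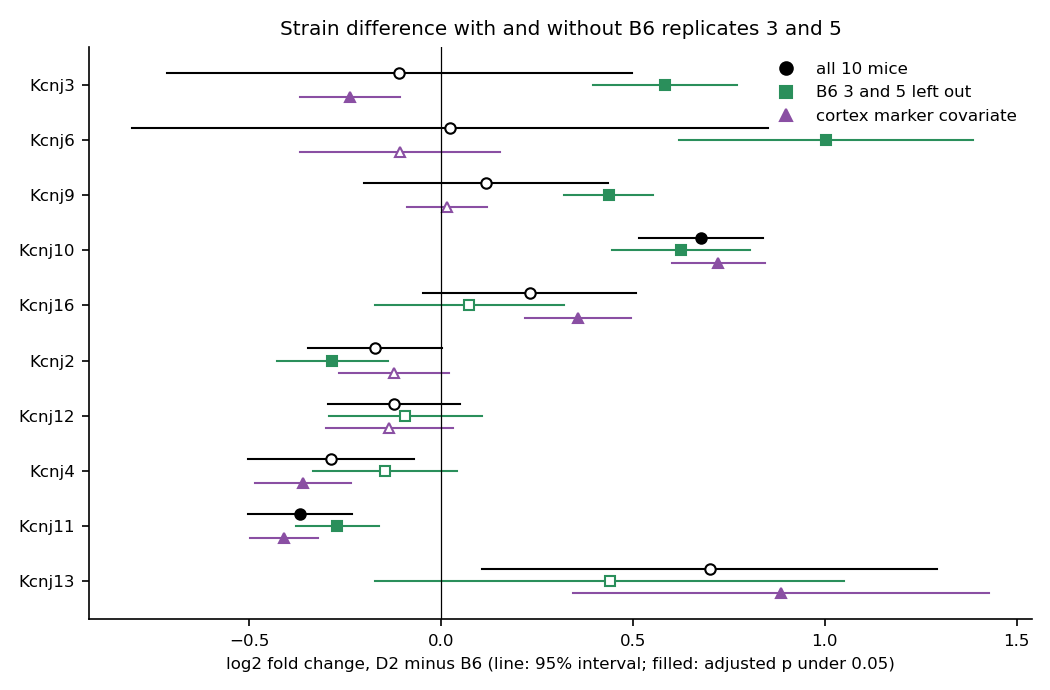
Log2 fold change (D2 over B6) with 95% intervals for the 10 Kcnj genes in all 10 mice (black circles), without B6 replicates 3 and 5 (green squares) and with the cortex marker level as a covariate (purple triangles), where filled symbols have an adjusted p under 0.05. Kcnj10 and Kcnj11 stay on their side of 0 in all 3 fits, whereas Kcnj3 moves from -0.11 to 0.58 and -0.24.

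The make-up of the GIRK genes was compared within each mouse from CPM per kb of exon. Kcnj3 made up 57.9% ± 4.66 of the summed level of the 3 genes in B6 and 55.9% ± 1.36 in D2, Kcnj9 36.4% ± 6.03 and 37.8% ± 1.58, and Kcnj6 5.63% ± 1.48 and 6.27% ± 1.01 (SD, n = 5 mice each). The order rests on the gene length, since with the longest transcript in place of all exons Kcnj3 made up 45.5% in B6 and 43.3% in D2, and Kcnj9 46.1% and 47.4%. Kcnj3 was above Kcnj9 in 10 of 10 mice by exon length and in 3 of 10 by transcript length. By exon length, in B6 replicates 3 and 5 the share of Kcnj3 was 63.4% and 62.5% and that of Kcnj9 29.6% and 30.2%, against 35.8% to 42.1% for Kcnj9 in the other 8 mice. The log2 ratios of Kcnj3 to Kcnj6 (-0.23, p = 0.206, adjusted p = 0.41), Kcnj3 to Kcnj9 (-0.12, p = 0.46, adjusted p = 0.61) and Kcnj6 to Kcnj9 (0.11, p = 0.74, adjusted p = 0.74) did not pass the two-sided exact permutation test between the strains.

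Receptors that open GIRK channels were measured alongside them. Of 20 receptor genes 1 was higher and 2 were lower in D2, which is 15% of the list against 18.3% of all genes, with a median log2 fold change of -0.08. Drd2, the D2 dopamine receptor of the indirect pathway and of dopamine neurons, was at 145 ± 7.45 CPM in B6 and 105 ± 5.38 CPM in D2 (SD, n = 5 mice each), with no overlap and a log2 fold change of -0.46 (edgeR adjusted p = 8.6e-06). Gabbr1, a subunit of the GABA-B receptor, changed by -0.18 (edgeR adjusted p = 0.0018), and Gabbr2, the other subunit, was at 0.06 (edgeR adjusted p = 0.78). Chrm2, the M2 muscarinic receptor, was higher in D2 by 0.41 (edgeR adjusted p = 0.034), although its values overlapped.

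Of 25 genes for G protein subunits and regulators of GIRK channels, 1 was higher and 3 were lower in D2. This is 16% of the list, against 18.3% of all genes and 23.8% of those averaging 100 counts or more. The median log2 fold change of the list was 0.01. Rgs9, a striatal accelerator of G protein inactivation, was at 506 ± 48.0 CPM in B6 and 425 ± 23.7 CPM in D2 (SD, n = 5 mice each), with a log2 fold change of -0.25 (edgeR adjusted p = 0.014). Gnao1, the alpha subunit Go, changed by -0.20 (edgeR adjusted p = 0.0083) and the beta subunit Gnb2 by -0.13 (edgeR adjusted p = 0.032). The gamma subunit Gng3 was higher in D2 by 0.25 (edgeR adjusted p = 0.0063). Snx27, the sorting nexin that binds GIRK3, was at 180.3 ± 9.20 CPM in B6 and 189 ± 3.96 CPM in D2, and its log2 fold change of 0.07 did not pass.

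Kcnj13 was the scarcest of the 10 genes. It lies at chr1:87309135-87322456 on the minus strand and was at 0.393, 0.393, 0.265, 0.485 and 0.229 CPM in B6 replicates 1 to 5 and 0.476, 0.344, 0.534, 0.601 and 0.925 CPM in D2 replicates 1 to 5. The strains overlapped, and D2 replicate 5 was the highest. Its log2 fold change was 0.70 with a standard error of 0.27 (95% interval 0.11 to 1.29), and it did not pass the threshold (edgeR adjusted p = 0.103) except without D2 replicate 2 (0.84, edgeR adjusted p = 0.048) and in the covariate fit. Without B6 replicates 3 and 5 it was 0.44 (standard error 0.28, edgeR adjusted p = 0.34). Ttr, the most abundant choroid plexus transcript, was at 0.122 ± 0.111 CPM in B6 and 0.211 ± 0.191 CPM in D2. The sum of 10 choroid plexus genes was 164 to 194 CPM in B6 and 166 to 215 CPM in D2, and most of it was Enpp2 (148 ± 21.2 CPM in B6 and 139 ± 17.9 CPM in D2), which other brain cells also express. Folr1 was the gene among them with libraries at 0 and the 1 gene of the list that was called, lower in D2 (0.0507 ± 0.0343 CPM in B6 and 0.00174 ± 0.00389 CPM in D2, edgeR adjusted p = 0.0054), from at most 10 counts per library. The part of choroid plexus cells in the Kcnj13 values was not tested.

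Gene levels were compared across the family as CPM per kb of exon, which sets them against annotated gene length and so depends on the length chosen. Over the 10 mice, the mean was 45.6 for Kcnj4, 45.2 for Kcnj10, 11.2 for Kcnj11, 10.1 for Kcnj3, 8.69 for Kcnj2, 6.28 for Kcnj9, 3.45 for Kcnj16, 1.82 for Kcnj12, 1.09 for Kcnj6 and 0.0746 for Kcnj13. Kcnj4 and Kcnj10 were thus the most abundant inward rectifier transcripts per length. Their order turned with the strain, since Kcnj4 lay between 40.3 and 58.7 and Kcnj10 between 31.8 and 38.4 CPM per kb in B6, while in D2 Kcnj10 (51.5 to 65.2) lay above Kcnj4 (35.4 to 47.5) in all 5 mice. With the longest transcript as the gene length this order held in 4 of 5 D2 mice and in all 5 B6 mice. The ranges of Kcnj11, Kcnj3, Kcnj2 and Kcnj9 overlapped from each to the next, as did those of Kcnj12 and Kcnj6, while Kcnj16 lay apart from its neighbours in this order. Kcnj2 was above Kcnj9, and Kcnj12 above Kcnj6, in 10 of 10 mice, but with the longest transcript as the length in 3 of 10 and 6 of 10 mice.

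**Figure D5:**
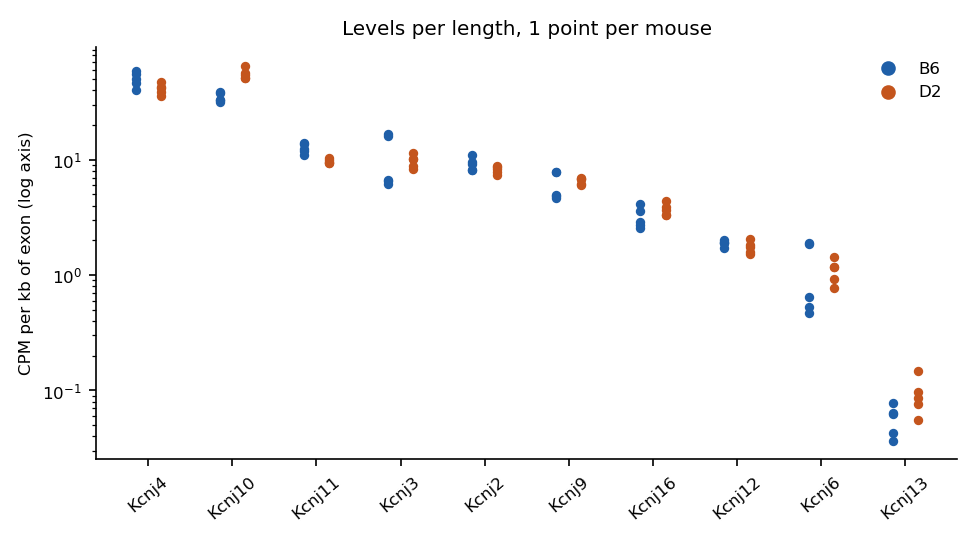
CPM per kb of exon (log axis) of the 10 Kcnj genes in each B6 (blue) and D2 (orange) mouse, ordered by the mean over 10 mice. Levels span from 0.0367 for Kcnj13 to 65.2 for Kcnj10, and Kcnj4 and Kcnj10 swap their order between the strains.

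The annotation lists 5 other Kcnj genes, and 1 of them, Kcnj14, which encodes Kir2.4, was higher in D2. It was at 1.61 ± 0.140 CPM in B6 and 2.21 ± 0.328 CPM in D2 (SD, n = 5 mice each), with no overlap and a log2 fold change of 0.46 (standard error 0.112, edgeR adjusted p = 0.011). Kcnj5, the gene of GIRK4, was at 3.61, 3.45, 1.06, 2.74 and 1.10 CPM in B6 replicates 1 to 5, so B6 replicates 3 and 5 were lowest for this GIRK gene. In D2 it was at 3.19 ± 0.490 CPM, and the log2 fold change of 0.41 did not pass (edgeR adjusted p = 0.44). It was -0.038 without B6 replicates 3 and 5 (edgeR adjusted p = 0.90). With the cortex marker level as a covariate it was 0.91 (edgeR adjusted p = 5.8e-06), so the strain difference of Kcnj5 depended on how these libraries were treated. Kcnj15 had 4 to 11 counts and Kcnj1 had 0 to 4 counts per library.

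The genes whose values over the 10 mice were most like those of a given Kcnj gene were found by the root mean square difference of centred log2 CPM, among 15331 genes. For Kcnj3 they were Slc24a2 (0.083), F730043M19Rik (0.094) and C230034O21Rik (0.096), for Kcnj6 Ndst4 (0.152), Kcnh7 (0.16) and Ptpn3 (0.163), and for Kcnj9 Mtfp1 (0.0397), Stmn2 (0.0443) and Septin9 (0.0508). All 9 were, like these GIRK genes, at least 1.58 times higher in B6 replicates 3 and 5 than in the other B6 mice. For Kcnj10 they were Dhrs11 (0.0878), Nhsl1 (0.0879) and Rfk (0.089), which were all higher in D2. Because the genes were picked for a like pattern over the same mice, these shared differences follow from the choice. The median difference to any gene was 0.50 for Kcnj3, 0.70 for Kcnj6, 0.29 for Kcnj9 and 0.37 for Kcnj10.

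Several of the Kcnj genes share exon bases with a gene on the opposite strand, and reads from the 2 cannot be told apart if the counting ignored strand. Kcnj9 shares 1103 bases (11.2% of its exons) with Igsf8, which was lower in D2 (log2 fold change -0.27, edgeR adjusted p = 1.1e-05). Kcnj9 also shares 647 bases (6.58%) with Gm70847 and 355 bases (3.61%) with Gm36937, both long non-coding genes. Kcnj13 shares 669 bases (10.7%) with Gigyf2, which was higher in D2 (0.16, edgeR adjusted p = 0.0072). Kcnj3 shares 1282 bases (22.6%) with Gm74713 and Kcnj6 1437 bases (12.5%) with Gm41505, both long non-coding genes, whereas the overlap of Kcnj10 with Gm57153 is 84 bases (1.55%). Gm74713 and Gm70847 were not in the count table. No gene overlaps Kcnj11, Kcnj4, Kcnj12 or Kcnj16 in the annotation.

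Within 250 kb of Kcnj10, 10 of 26 other genes were called between the strains, with 4 higher and 6 lower in D2, where the share over all genes was 18.3% and that over genes averaging 100 counts or more 23.8%. Kcnj9, its neighbour, had 11 of 26, and Kcnj10 is 1 of these 11. For Kcnj11 the count was 5 of 14, with 3 higher and 2 lower. Kcnj4 had 4 of 27, Kcnj12 4 of 14, Kcnj13 4 of 13 and Kcnj3 1 of 1, while none of 3 genes near Kcnj2, 7 near Kcnj6 and 3 near Kcnj16 were called. With so few genes in each window, no test was made of these counts.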

How the data were processed

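RNA of the NAc was sequenced from 5 B6 and 5 D2 mice. The authors trimmed reads with fastp, aligned them to GRCm39 with STAR (version 2.7.10b in the submitters' processing notes), handled alignments with SAMtools (1.6) and counted reads per gene of Ensembl release 108 with featureCounts. The deposited values are raw counts, unnormalized, without genes whose median was 0 (the lowest median was 0.5). The strand setting is not given in the sources used here. Both strains were aligned to the B6 genome, so D2 reads with many D2 alleles may be lost, and the effect on each gene was not tested.

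Counts were fitted with edgeR 4.0.16 in R 4.3.3 (two-sided quasi-likelihood test of strain after TMM scaling), with Benjamini-Hochberg adjustment over 29883 genes and a threshold of 0.05. Standard errors were derived from the fold change and its F statistic. The ratios of subunit counts were compared with exact permutation tests. Exon lengths, overlaps and sequences came from GENCODE vM39 on GRCm39, which is the same build but another annotation release and matched 29519 genes. The genes named were the 10 members, the other Kcnj genes, the called genes of each partner list with the largest change and an average of 100 counts or more, genes overlapping a member and the 3 most alike in pattern. Partner genes with a value given beside these were chosen after their values were seen. The name of 1 marker gene and the sequence of 1 member are not reported here. The members and lists were chosen with earlier results of these data known. Alternatives were DESeq2 1.42.0, other size factors, filters on low counts, a stricter threshold, library sizes without mitochondrial genes, a replicate block and each mouse left out. Leaving out B6 replicates 3 and 5 together and the marker covariate were chosen after seeing the data. On simulated data with the library sizes of this comparison (29881 genes, 200 changed), edgeR found 100 of 100 genes with a log2 change of 1. It found 26 of 100 with a log2 change of 0.4, with 5 false calls. DESeq2 found 100 and 29, with 23 false calls. The simulation gave every gene the same relative spread between mice beyond sampling noise, and no library a different cortex marker level. These rates therefore do not carry over to genes as variable as Kcnj3 and Kcnj6. Permutation tests ran in scipy 1.17.1 and figures in matplotlib 3.10.9 (Python 3.11.15).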

Additional observations from a re-analysis of the deposited data

Results flagged for a closer look

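In D2 mice, Kcnj5, which encodes GIRK4, reached 4.04 CPM in replicate 1, where the other 4 mice lay between 2.78 and 3.102 CPM. Kcnj14, which encodes Kir2.4, reached 2.79 CPM in the same mouse, where the other 4 lay between 2.00 and 2.17 CPM. In both cases the gap to the next mouse, divided by the range of the 5 mice, was above Dixon's critical value of 0.71 (0.744 for Kcnj5 and 0.786 for Kcnj14). These were 2 of 40 groups examined, and chance alone gives such a gap in about 1 in 20 groups. Among the 10 genes of the report no mouse was flagged. This rule looks for 1 mouse apart from the other 4 and cannot flag 2 that are high together. B6 replicates 3 and 5 were so in Kcnj3, Kcnj6 and Kcnj9.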

How the results depend on the processing

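The counts of genes called were within 1.5 times of 5478 in 20 of the alternatives, with 4636 to 5676 when each mouse was left out, while a threshold of 0.01 gave 3415. Of the 10 Kcnj genes 2 or 3 were called under 19 alternatives (2 to 3 with each mouse left out) and 6 both without B6 replicates 3 and 5 and with the marker covariate. The labels do not say whether the replicate numbers pair the mice. Deviations of same-numbered mice correlated from -0.407 to 0.368, with 2 of 5 pairs over 0.1 and 2 of 5 mice closest to their own number. So few pairs of mixed sign cannot settle whether mice were paired. With the number as a block 4731 genes and 3 Kcnj genes were called, Kcnj4 being added (-0.28, edgeR adjusted p = 0.0058), and Kcnj3 turned to 0.038. Kcnj3 also turned without B6 replicates 3 and 5 (0.58), and with each mouse left out it ranged from -0.25 to 0.12. Kcnj6 turned to -0.11 with the covariate and ranged from -0.17 to 0.31 with each mouse left out. For the ratio of Kcnj10 to Kcnj16 the block gave 0.43 (exact sign-flip p = 0.0625, the smallest possible for 5 pairs, adjusted p = 0.25) and the comparison without B6 replicates 3 and 5 gave 0.55 (exact p = 0.036, the smallest possible, adjusted p = 0.071). Leaving out each mouse gave 0.36 to 0.48. The ratio of Kcnj3 to Kcnj9 turned to 0.14 without B6 replicates 3 and 5, and that of Kcnj6 to Kcnj9 ranged from -0.049 to 0.28 with each mouse left out. With the longest transcript as the gene length, CPM per kb was 2.07 for Kcnj6, 10.2 for Kcnj9, 13.1 for Kcnj11, 2.21 for Kcnj12 and 4.55 for Kcnj16, and Kcnj9 moved from place 6 to place 4. Apart from fits with fewer mice, the cause of these changes was not tested. Kcnj13 rests on at most 98 counts per library.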
